A study of Mus musculus with 7 samples.

Results

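Acute graft-versus-host disease begins when T cells of an allogeneic graft meet the antigens of the recipient. ICOS is a costimulatory receptor that T cells put on their surface after activation, and its single ligand ICOSL sits on B cells, macrophages and dendritic cells. Signals through ICOS support follicular helper T cells, which carry CXCR5 and depend on BCL6, and through them germinal centre B cells. The comparison described here sets every spleen array from mice given an antibody against ICOSL beside the arrays from mice given control antibody, and asks what an early and a late start of the blockade have in common.

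The comparison holds 6 of the 7 arrays of the series: 4 anti-ICOSL arrays, taken as one group, and 2 isotype arrays. All 6 come from female C57BL/6 mice aged 9 to 12 weeks that received 10.0 Gy of irradiation and then splenocytes of C3H/HeN donors. The isotype mice were given control rat IgG. The anti-ICOSL mice were given the antibody from day 0 (2 arrays) or from day 3 (2 arrays), 500 µg at first and 200 µg at each later injection. The controls had the same doses, and which of these days their injections began on is not stated. Spleen cells were collected on day 4. RNA of the allogeneic mice of a group (4 mice per group and experiment) was combined before it was put on 2 arrays, so the spread between the arrays of a group may be technical. A single array of syngeneic mice, irradiated C57BL/6 recipients of C57BL/6 splenocytes, is quoted beside the values as a reference point and enters no test of the comparison.

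Signals are MAS5 signals on a linear scale. Array medians were 145 to 174 on the 7 arrays. Within a group, the number of the 22626 probe sets at least 2-fold apart was 1314 for isotype, 1008 for day 0 and 1027 for day 3. RNA quality was read from Gapdh, whose 3' over 5' signal ratio was 0.784 and 0.767 in the isotype group and 0.794 to 0.865 in the anti-ICOSL group. It did not overlap between the groups (exact permutation test, two-sided p = 0.133, where 6 arrays allow no p below 0.0667), and its part in the results below was not tested. The same ratio for Actb overlapped (1.00 and 1.02 against 0.967 to 1.02). As a check of the tissue, Cd3e of T cells stood at 4353 to 7120 and Cd79a of B cells at 2078 to 4009 on the 6 arrays. Alb of liver was at 69.6 to 124 and Myh6 of heart muscle at 22.7 to 74.9. Gfap, also included to mark other tissues, read 62.2 and 59.8 under isotype and 80.1 to 171 on the anti-ICOSL arrays. Its dimmer probe set overlapped. Of the 13 measured check genes 4 lay above both isotype arrays on all 4 anti-ICOSL arrays and 3 below, against 10.0% and 7.43% of all genes.

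Genes are described as shared where both schedules lie on the same side of the control: all 4 anti-ICOSL arrays lie above, or all 4 below, both isotype arrays. That was the case for 3801 probe sets (16.8%), 2143 of them higher (9.47%) and 1658 lower (7.33%). Of the 15 ways to choose 2 of 6 arrays, 1 holds the 2 lowest and 1 the 2 highest signals of a probe set. Arrangement alone can therefore put probe sets on one side, and the counts were not tested against it. Differences were taken on the scale of log2(signal + 50), which understates the fold change of genes with low signal. At least 2-fold apart as well were 97 probe sets on the higher side (0.429%) and 51 on the lower side (0.225%). Limma, fitted over all probe sets with the 4 arrays as one group, called 0 higher and 0 lower (0% each) at a Benjamini-Hochberg adjusted p of 0.05. The smallest adjusted p was 0.0834, and 1722 probe sets (7.61%) had an unadjusted p under 0.05. Among the 13450 probe sets whose mean over the 6 arrays reached the 40th percentile of all signals (101), limma called 4 higher (0.0297%), Arg1, Saa3, Pga5 and Marco, and 1 lower (0.00743%), which has no single symbol. That mean includes the 4 anti-ICOSL arrays, so the filter favours genes that are high on them. Arg1 (58.2 and 57.04 under isotype) and Pga5 (20.1 and 24.2) passed it only through their anti-ICOSL signals. Cpb1, with 219 and 222 under isotype and a mean of 88.0, was left out. The 4 against 1 calls are therefore partly made by the filter. The split between higher and lower depends on the scaling. Of the probe sets on one side, 56.4% were higher as deposited and 33.8% after each array was centred on its median.

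With 1 probe set per gene, the one with the highest mean, 2166 of 12393 genes lay on one side (17.5%), 1245 higher (10.0%) and 921 lower (7.43%). At or above the 40th percentile these were 811 higher (10.3%) and 658 lower (8.32%) of 7910 genes. At the edge of the rule, with at least a 1.5-fold change, Fcgr3 was just inside: the lowest anti-ICOSL array read 345 and the higher isotype array 344. Treml1 was just outside, with 149.9 on the lowest anti-ICOSL array against 150.5 on the higher isotype array. On the other side, Srek1 was just inside, with 477 on the highest anti-ICOSL array against 482 on the lower isotype array, and Ern1 was just outside, with 161 against 160.0.

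**Figure D1:**
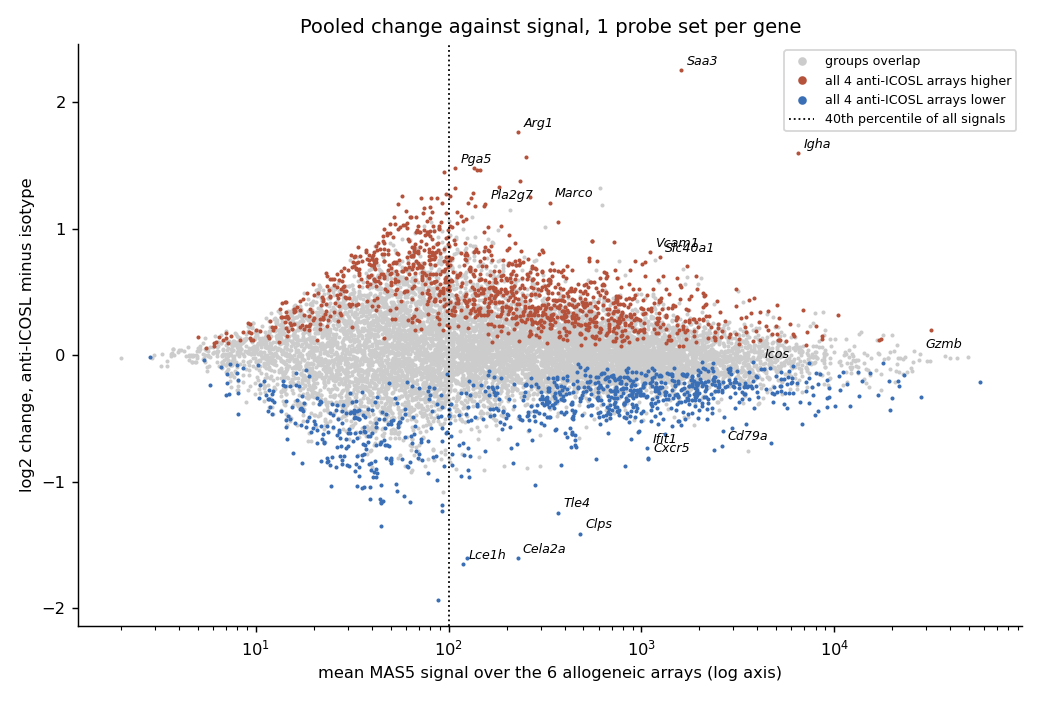
Each point is 1 gene, with its mean signal over the 6 allogeneic arrays on a log axis and its log2 change, anti-ICOSL minus isotype, on the vertical axis. Red and blue genes have all 4 anti-ICOSL arrays above or below both isotype arrays, and grey genes overlap. Saa3 and Arg1 have the largest changes on the higher side among genes right of the dotted line, the 40th percentile of all signals, and Lce1h and Cela2a the largest on the lower side.

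The largest shared changes on the higher side were in 2 genes known from stimulated macrophages. Saa3, an acute-phase serum amyloid A protein made by macrophages, and Arg1, the enzyme arginase 1 that consumes arginine in alternatively activated macrophages and myeloid cells, were both several times higher under either schedule. The scavenger receptor Marco of marginal zone macrophages was higher as well. The promoters of 2 genes are printed here from RefSeq, from 250 bases before to 50 after the start site and read 5′ to 3′, Saa3 as the gene of the largest change on the higher side and Ifit1 as the interferon-induced gene described further on. Capitals mark the motif searched on both strands, TTGCNNAA of C/EBP factors for Saa3 and the core of the interferon-stimulated response element (GAAA, any 2 bases, GAAA) for Ifit1.

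Saa3 promoter, GRCm38.p6 chr7:46715627-46715926, minus strand: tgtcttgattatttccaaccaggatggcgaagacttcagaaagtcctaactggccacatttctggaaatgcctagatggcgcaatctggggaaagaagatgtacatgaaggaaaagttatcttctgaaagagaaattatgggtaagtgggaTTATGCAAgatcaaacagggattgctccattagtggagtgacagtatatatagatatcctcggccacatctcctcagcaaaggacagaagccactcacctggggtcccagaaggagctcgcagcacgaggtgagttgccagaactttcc
Ifit1 promoter, GRCm38.p6 chr19:34640639-34640938, plus strand: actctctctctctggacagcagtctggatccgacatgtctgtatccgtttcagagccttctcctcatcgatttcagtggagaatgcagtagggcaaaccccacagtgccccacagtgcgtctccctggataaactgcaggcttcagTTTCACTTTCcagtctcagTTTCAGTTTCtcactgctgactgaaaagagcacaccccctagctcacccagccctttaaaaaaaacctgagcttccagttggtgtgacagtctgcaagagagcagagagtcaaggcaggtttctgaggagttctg

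The Saa3 window held 1 match to its motif, which 10.8% of 32851 promoter windows of this length hold, and the Ifit1 window held 2 matches to its own, which 3.44% of windows hold. Of the 14 genes on the alternative activation list 9 had a window, and 2 of these, Retnla and Saa3, held TTGCNNAA. Of the 23 genes on the type I interferon list 16 had a window, and 10 held the response element core. A match describes the letters only and shows no binding.

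In the isotype group Saa3 read 468 and 375, against 2286 and 2184 with the early start and 1754 and 2571 with the late start. The lowest anti-ICOSL array was thus far above the higher isotype array, and the schedules overlapped each other. The pooled log2 change was 2.25 ± 0.19 (SE; limma adjusted p = 0.0862), from a mean of 421 ± 65 (SD, n = 2) to 2199 ± 338 (n = 4), while the syngeneic array read 850. Arg1 read 58.2 and 57.04 in the isotype group, 330 and 295 with the early start, and 304 and 332 with the late start. All 4 anti-ICOSL arrays lay close together and clear of the controls. Its pooled log2 change was 1.76 ± 0.14 (adjusted p = 0.0834), and it stood at 5.32 on the syngeneic array. Both genes passed when only probe sets at or above the 40th percentile were tested. The limma adjusted p was 0.0131 for Saa3 and 0.0116 for Arg1. Saa3 lay above that percentile on both isotype arrays. Arg1 lay below it on both and entered the filtered test only through its anti-ICOSL signals, so its pass is partly made by the filter. With any 1 anti-ICOSL array left out of the test over all probe sets, neither gene passed.

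Marco read 154 and 157 under isotype and 406, 428, 428 and 434 on the anti-ICOSL arrays, all 4 within a narrow band. Its log2 change was 1.20 ± 0.13 (limma adjusted p = 0.120, and 0.0313 in the test above the 40th percentile), and the syngeneic array was higher still at 1114. Clec10a, a lectin of alternatively activated macrophages and dendritic cells, read 16.3 and 16.6 under isotype, 164 and 167 at day 0, and 104 and 99.2 at day 3. It was chosen after its values were seen, because its mean lies below the 40th percentile.

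**Figure D2:**
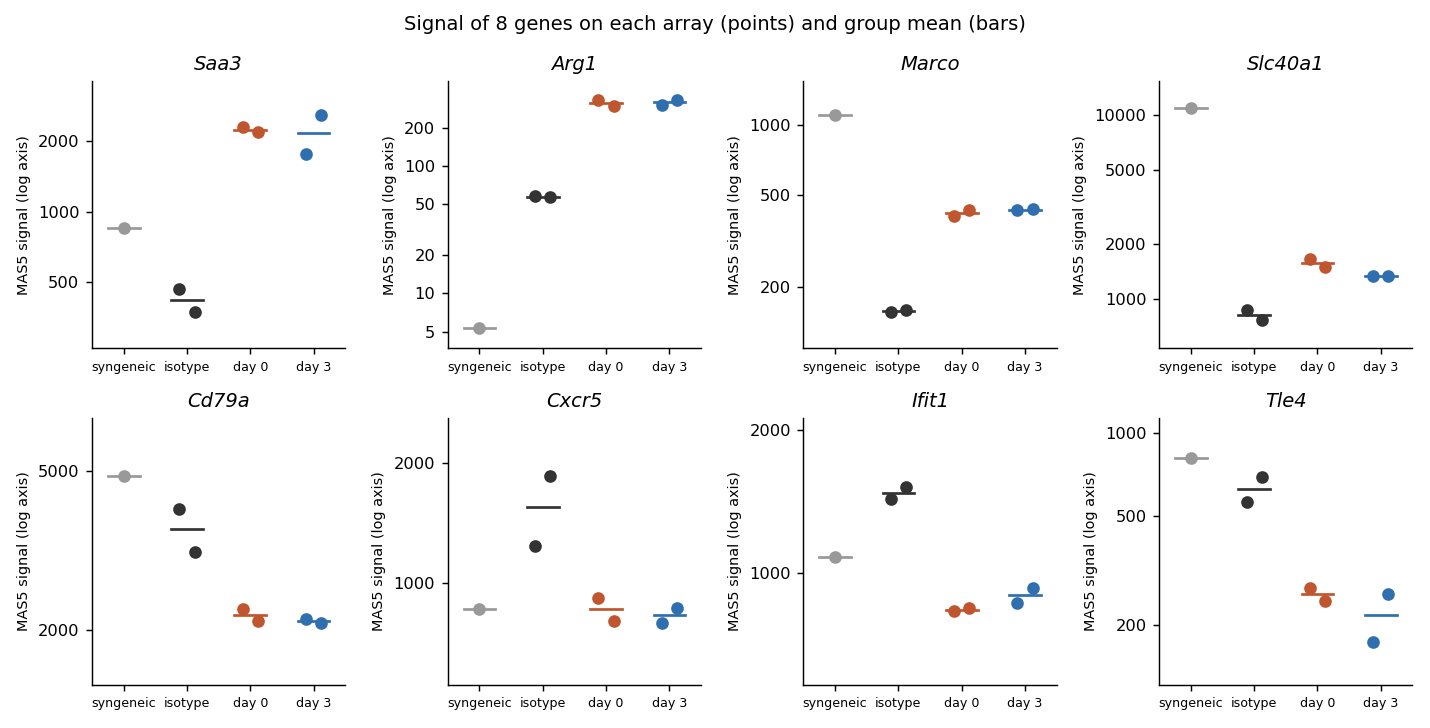
Points are arrays and short bars are group means, on log axes of MAS5 signal, for the syngeneic array, the isotype arrays and the arrays of each antibody schedule. For Saa3, Arg1, Marco and Slc40a1 the 4 anti-ICOSL arrays lie above both isotype arrays, and for Cd79a, Cxcr5, Ifit1 and Tle4 they lie below, with day 0 and day 3 near each other.

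Some macrophage genes were higher under both schedules and others were not. Of 22 measured genes of the macrophage and monocyte core, 10 lay above both isotype arrays on all 4 anti-ICOSL arrays and 0 below, against 10.0% and 7.43% of all genes. The median log2 change of the list was 0.33, against 0.03 over all genes, with 0.44 for day 0 and 0.22 for day 3, and the pooled median was 0.20 without isotype array 2. None passed limma at an adjusted p of 0.05. With each array centred on its median, 4 in place of 10 were on the higher side. The members differed in size of change. Fcgr1, the high-affinity receptor for IgG, read 96.3 and 151 under isotype and 218, 313, 270 and 271 on the anti-ICOSL arrays (log2 change 0.88 ± 0.20, limma adjusted p = 0.388). Cd14, the coreceptor for bacterial lipopolysaccharide, read 163 and 204 under isotype against 309, 434, 360 and 361 (0.83 ± 0.17, adjusted p = 0.351). C1qa, a chain of the complement starter C1q, read 1299 and 1094 under isotype, 2194 and 2293 at day 0, and 1840 and 1649 at day 3, each clear of the controls but the late start nearer to them.

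Of the 12 measured complement genes 4 were higher on all 4 arrays and 0 lower, against 10.0% and 7.43% of all genes. The 4 were C1qa, C1qb (1 of its 3 probe sets), C1qc and the anaphylatoxin receptor C3ar1, the last with 108 and 42.2 under isotype against 124 to 197. The list's median log2 change was 0.17, and 0.43 without isotype array 2. With centred arrays 1 of the 12 lay higher and 1 lower. The core macrophage list also held genes that both schedules did not share. Lyz1 and Lyz2, lysozymes of monocytes and macrophages, and Ccr2, the receptor that draws inflammatory monocytes from marrow, were below both isotype arrays at day 3 and not at day 0. Lyz2 read 1259 and 1588 under isotype, 1987 and 1904 at day 0, and 905 and 964 at day 3.

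Several genes of macrophages that clear red cells and particles were higher under both schedules, and none passed limma in the test over all probe sets. In the red pulp and iron list 6 of 16 measured genes were higher on all 4 arrays and 0 lower, against 10.0% and 7.43% of all genes. The median log2 change of the list was 0.25, and 0.10 without isotype array 2. Vcam1, an adhesion protein on red pulp macrophages, read 759 and 673 under isotype, 1422 and 1504 at day 0, and 1108 and 1184 at day 3 (0.81 ± 0.18, limma adjusted p = 0.379). Slc40a1, the iron exporter ferroportin, read 876 and 776 under isotype, 1652 and 1490 at day 0, and 1332 and 1334 at day 3 (0.78 ± 0.16, adjusted p = 0.334). Both stayed far below the syngeneic array, which read 8748 for Vcam1 and 10891 for Slc40a1. Slc11a1, a metal transporter of phagosomes, was 447 and 386 under isotype against 564 to 715. Spic, the transcription factor that defines red pulp macrophages, overlapped: 201 and 144 under isotype against 104 to 314.

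In the marginal zone and scavenger list 6 of 14 measured genes were higher and 0 lower (median 0.33), against 10.0% and 7.43% of all genes. With quantile normalization or centred arrays 5 were higher and 1 lower. Besides Marco the 6 include Nr1h3, the oxysterol receptor LXR alpha, with 135 and 148 under isotype against 217, 275, 307 and 263. Cd5l, a target of that receptor that keeps macrophages alive, read 1308 and 1452 under isotype, 2686 and 2223 at day 0, and 1821 and 1988 at day 3. In the alternative activation list 5 of 14 were higher and 0 lower (median 0.40), against 10.0% and 7.43% of all genes. The 5 were Saa3, Arg1, Clec10a, F13a1 and the chemokine Ccl24. Saa3, described above as an acute-phase protein, is counted only because it was put on this list. Pla2g7, a phospholipase of macrophages that inactivates platelet-activating factor, read 75.7 and 43.5 under isotype against 251, 212, 142 and 200, and 2013 on the syngeneic array. Summed over the macrophage core list, signal was 26135 and 26298 under isotype and 27568 to 34112 on the anti-ICOSL arrays. More cells of a type and more RNA per cell cannot be told apart in such bulk samples.

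**Figure D3:**
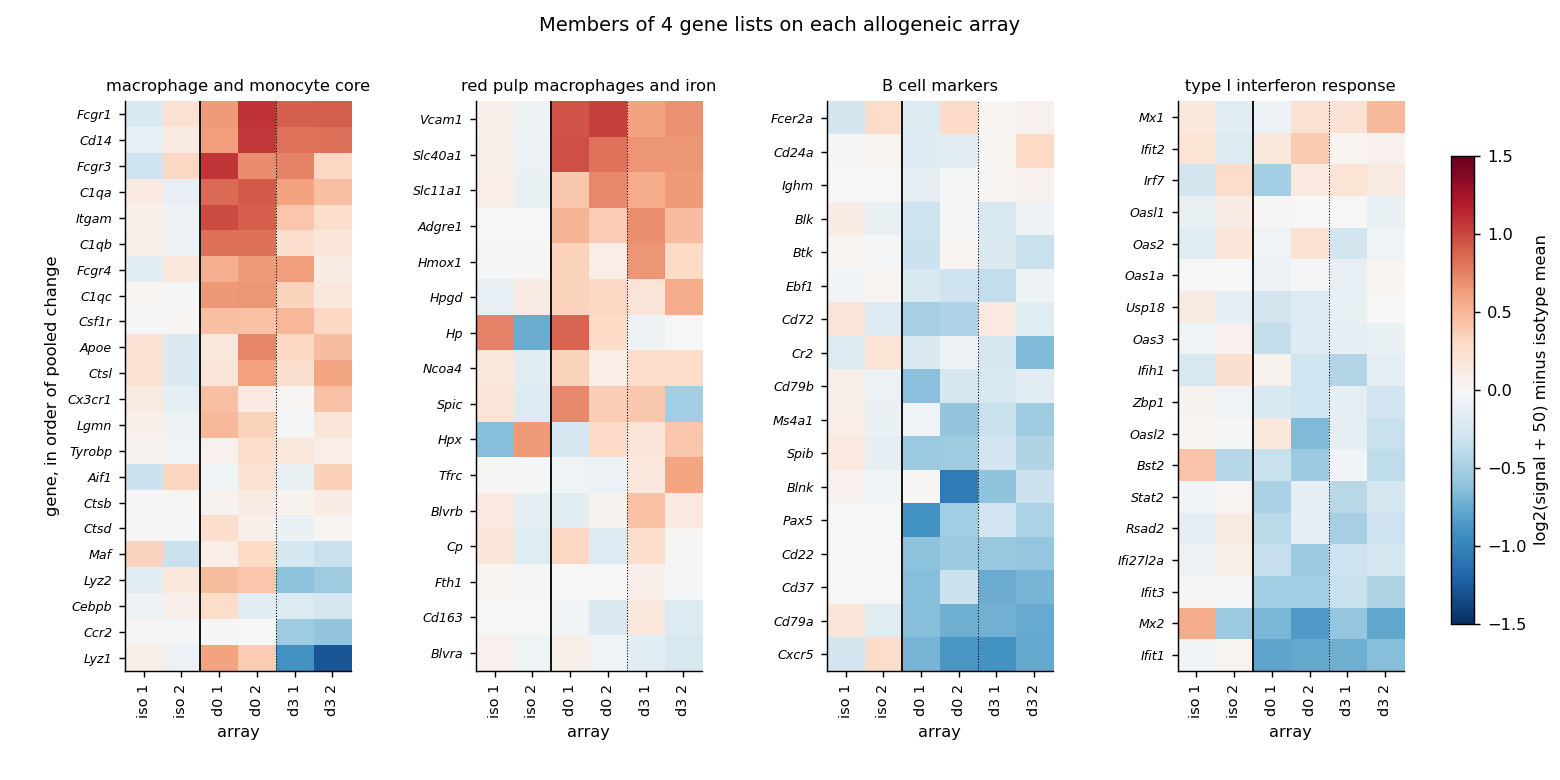
Rows are measured members of 4 gene lists in order of pooled change, columns are the 2 isotype (iso), 2 day 0 (d0) and 2 day 3 (d3) arrays, and colour is log2(signal + 50) minus the isotype mean. The upper rows of the macrophage panels are red on all 4 anti-ICOSL arrays, the lower rows of the B cell and interferon panels are blue, and Lyz1, Lyz2 and Ccr2 differ between d0 and d3.

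B cell genes lay on the opposite side. Of 17 measured B cell markers, 8 lay below both isotype arrays on all 4 anti-ICOSL arrays and 0 above, against 7.43% and 10.0% of all genes, and the median log2 change was −0.32. None passed limma at an adjusted p of 0.05. Cd79a, a signalling chain of the B cell receptor, read 4009 and 3129 under isotype and 2251, 2106, 2132 and 2078 on the anti-ICOSL arrays (−0.71 ± 0.16, limma adjusted p = 0.379). Cd22, an inhibitory coreceptor of B cells, was tight on both sides, with 3788 and 3843 against 2481, 2596, 2556 and 2527. Cd37, a tetraspanin of B cells, read 3417 and 3409 against 2018 to 2726. Ighm, the heavy chain of IgM, overlapped between the groups (49414 and 49956 against 45097 to 51874).

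Cxcr5, the receptor by which B cells and follicular helper T cells enter follicles, had the most negative log2 change among the B cell markers. It read 1240 and 1853 under isotype, 918 and 803 at day 0, and 795 and 867 at day 3 (−0.81 ± 0.19, limma adjusted p = 0.403), with 860 on the syngeneic array. Bcl6, the repressor that follicular helper T cells and germinal centre B cells need, read 243 and 366 against 212, 116, 154 and 170 (−0.73 ± 0.23, adjusted p = 0.507). A further probe set of Bcl6 overlapped (154 and 145 against 102 to 146). Sh2d1a, the adaptor SAP that follicular helper T cells use to bind B cells, read 778 and 825 against 677 to 714. Of the 12 measured genes of the follicular helper and germinal centre list 3 were lower on all 4 arrays and 1 higher. These shares are 25% and 8.33%, against 7.43% and 10.0% of all genes. The higher one was Il4, the cytokine interleukin 4, at a low level: 27.3 and 29.7 under isotype against 106, 91.2, 69.7 and 91.5 (0.82 ± 0.16, adjusted p = 0.294). Il21, the cytokine most tied to these cells, overlapped (337 and 503 against 366 to 572).

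MHC class II genes, carried by B cells and other antigen-presenting cells, were lower in 4 of 11 measured members and higher in 0. Over all genes 7.43% were lower and 10.0% higher. The median log2 change of the class II list was −0.16, with −0.07 for day 0 and −0.33 for day 3, and the pooled median was −0.39 without isotype array 2. Cd74, the invariant chain, read 15034 and 13750 under isotype against 10103 to 11593 (−0.40 ± 0.14, limma adjusted p = 0.567). H2-Eb1 read 4804 and 4475 against 3373 to 3647. H2-Ab1 of the same complex was not lower on its brightest probe set (726 and 1086 against 998 to 1412), and its 3 probe sets ranged from −0.40 to 0.47 in log2 change. Plasma cell genes stood on the higher side in 4 of 11 members and on the lower in 0, against 10.0% and 7.43% of all genes. Sdc1, the plasma cell surface proteoglycan CD138, read 144 and 119 under isotype against 155 to 243 on its brightest probe set, while a dim one was lower on all 4 arrays (52.5 and 35.7 against 15.7 to 20.4). Xbp1, the transcription factor for secretory cells, read 7723 and 10274 against 10470 to 11869 on its brightest probe set. Its other 3 overlapped, among them one with 7065 and 9061 against 7066 to 8186. Prdm1, the regulator that drives plasma cell differentiation, was another of the 4 members on the higher side. Igha, the IgA heavy chain, lay on the higher side as well but unequally: 2446 and 1788 under isotype, 2698 and 2977 at day 0, and 15228 and 13681 at day 3. Its other 2 probe sets overlapped with isotype at day 0 and lay above it at day 3. With centred arrays 2 of the 11 plasma cell genes were higher, and without isotype array 2 the median of the list was 0.14 in place of 0.22.

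**Figure D4:**
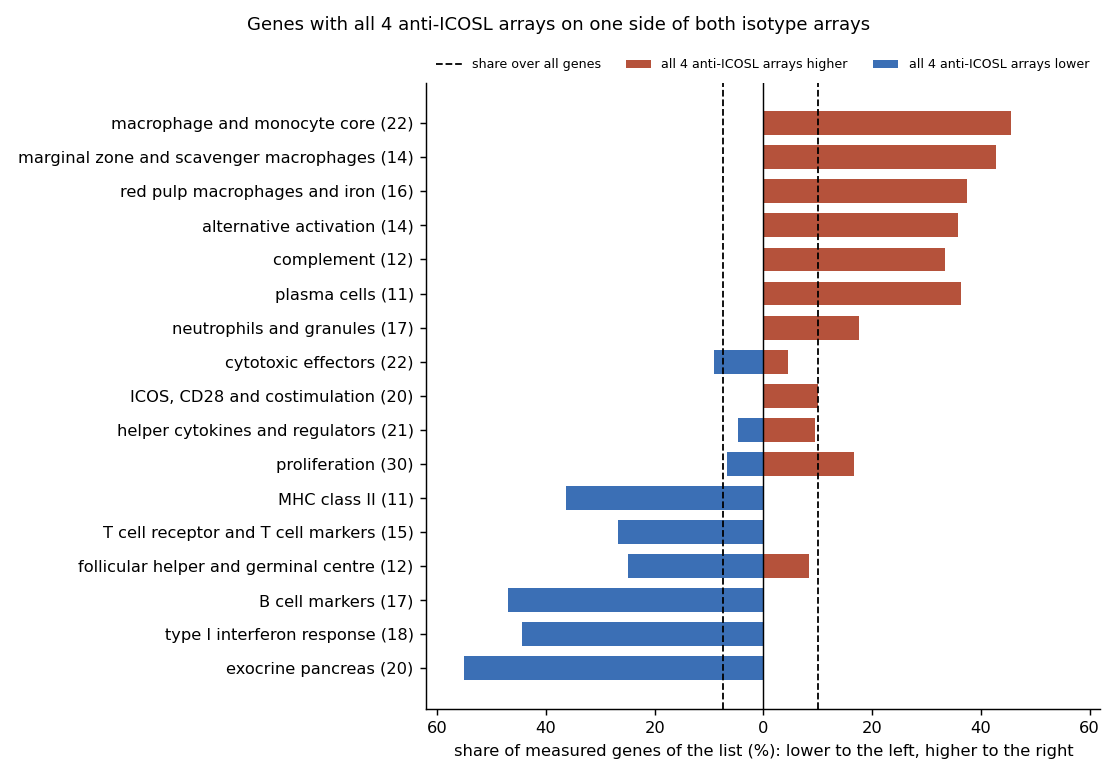
Bars give the share of measured genes of each list (number in brackets) with all 4 anti-ICOSL arrays above (red, right) or below (blue, left) both isotype arrays. Dashed lines mark the shares over all genes, 10.0% and 7.43%. Macrophage lists extend to the right only, and B cell, type I interferon and exocrine pancreas lists to the left only. Lists share some genes.

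Several genes induced by type I interferon were lower under both schedules. Of 18 measured genes 8 were below both isotype arrays on all 4 anti-ICOSL arrays and 0 above, against 7.43% and 10.0% of all genes. The median log2 change of the list was −0.22. No member passed limma at an adjusted p of 0.05, and with quantile normalization 6 in place of 8 were lower. Ifit1, an antiviral protein that binds foreign RNA, was the member with the largest change, and its promoter is printed above with 2 matches to the response element. It read 1436 and 1520 under isotype and 833, 846, 868 and 930 on the anti-ICOSL arrays, with all 4 close together (−0.73 ± 0.14, limma adjusted p = 0.289). Ifit3, of the same family, read 747 and 731 against 501, 501, 575 and 529. Ifi27l2a read 7401 and 8326 against 5363 to 6530, and Stat2, which carries the signal of the type I interferon receptor, read 674 and 719 against 483 to 623. Mx1, Ifit2 and Irf7 overlapped, so the members were not alike. Among 19 measured interferon gamma response genes 2 were lower, Irgm1 and Irf8, and 0 higher. The lower share was 10.5%, near the 7.43% of all genes, and another probe set of Irf8 overlapped. Irgm1, a GTPase of cell-autonomous immunity, read 1389 and 1720 against 904 to 1338.

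T cell markers were lower in 4 of 15 measured members (26.7%) and higher in 0, against 7.43% and 10.0% of all genes. The changes were small, with a median of −0.09 (−0.07 for day 0 and −0.20 for day 3). The median was −0.18 without isotype array 2 and −0.16 with centred arrays. With quantile normalization 2 in place of 4 were lower. Cd4, the coreceptor of helper T cells, read 2434 and 2412 under isotype, 2025 and 1884 at day 0, and 1608 and 1375 at day 3 (−0.50 ± 0.19, limma adjusted p = 0.598). For Cd8a, the coreceptor of killer T cells, the probe sets disagreed. The brighter one overlapped (4261 and 2040 against 2462 to 3898), and the other was lower on all 4 arrays (1415 and 984 against 665 to 882, log2 change −0.62). Il27ra, a chain of the interleukin 27 receptor of lymphocytes, read 1246 and 1127 against 735, 586, 728 and 485 (−0.87 ± 0.20, adjusted p = 0.403). Tle4, a Groucho corepressor, read 564 and 694 against 274, 245, 173 and 261 (−1.24 ± 0.20, adjusted p = 0.263). Another probe set of Tle4 overlapped (137 and 110 against 89.6 to 207).

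The effector program that marks the allogeneic response was near its isotype level. Of 22 cytotoxic effector genes 1 was higher (4.55%) and 2 were lower (9.09%), against 10.0% and 7.43% of all genes. The list had a median log2 change of −0.02. Gzmb, the granzyme of killer lymphocytes, read 25581 and 30122 under isotype and 24767 to 30362 on the anti-ICOSL arrays. Prf1, the pore-forming protein perforin, read 3089 and 2977 against 2505 to 3106. Of 20 costimulation genes 2 were higher, Tnfsf9 (4-1BB ligand) and Pdcd1lg2 (PD-L2), and 0 lower, a share no larger than the 10.0% of all genes that were higher. Tnfsf9 read 388 and 371 against 398 to 516. The transcript of the target itself, Icosl, overlapped (388 and 499 against 342 to 444). Foxp3 of regulatory T cells overlapped at a low level (99.8 and 82.8 against 69.9 to 116). Il10 read 162 and 267 under isotype, 437 and 309 at day 0, and 161 and 168 at day 3. Only the early schedule lay above both isotype arrays for Il10. Ifng read 2262 and 2607 under isotype, 2586 and 2606 at day 0, and 1665 and 1698 at day 3, so the schedules did not share a side. Ncr1, the activating receptor NKp46 of natural killer cells, read 388 and 308 against 810, 642, 461 and 590. It was 1 of 2 higher genes among 12 on the natural killer list (16.7%, against 10.0% of all genes). Of 30 proliferation genes 5 were higher (16.7%) and 2 lower (6.67%), against 10.0% and 7.43% of all genes.

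Transcripts of the exocrine pancreas, an organ that lies against the spleen, were lower on the anti-ICOSL arrays. Of 20 measured genes 11 were below both isotype arrays on all 4 and 0 above, against 7.43% and 10.0% of all genes. The median log2 change was −0.58. The share of lower genes, 55%, was larger than the share on either side of any immune list described here. Cela2a, an elastase, read 383 and 519 under isotype and 127, 65.2, 148 and 125 on the anti-ICOSL arrays (−1.61 ± 0.25, limma adjusted p = 0.263). Cpa1, a carboxypeptidase, read 235 and 284 against 54.0, 14.8, 52.5 and 105. Clps, the cofactor of pancreatic lipase, read 1050 and 681 against 242, 307, 313 and 294 (−1.41 ± 0.21, adjusted p = 0.224). Cpb1, another carboxypeptidase, lies below the 40th percentile and was chosen after its values were seen, with 219 and 222 against 19.7, 17.8, 11.7 and 37.1. Its log2 change was −1.93 ± 0.18, and its limma adjusted p over all probe sets, 0.0862, equalled that of Saa3. Cela1 and Prss2 overlapped, with 532 and 457 against 256 to 500 for Cela1, and the 4 probe sets of Prss2 ranged from −1.02 to −0.22 in log2 change. The summed signal of the list was 5119 and 5149 under isotype, 2297 to 3319 on the anti-ICOSL arrays and 8596 on the syngeneic array. These sums divided the groups as the B cell and macrophage sums did, and their part in the other results was not tested. The summed B cell signal was 77467 and 78292 under isotype and 66478 to 72627 on the anti-ICOSL arrays.

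**Figure D5:**
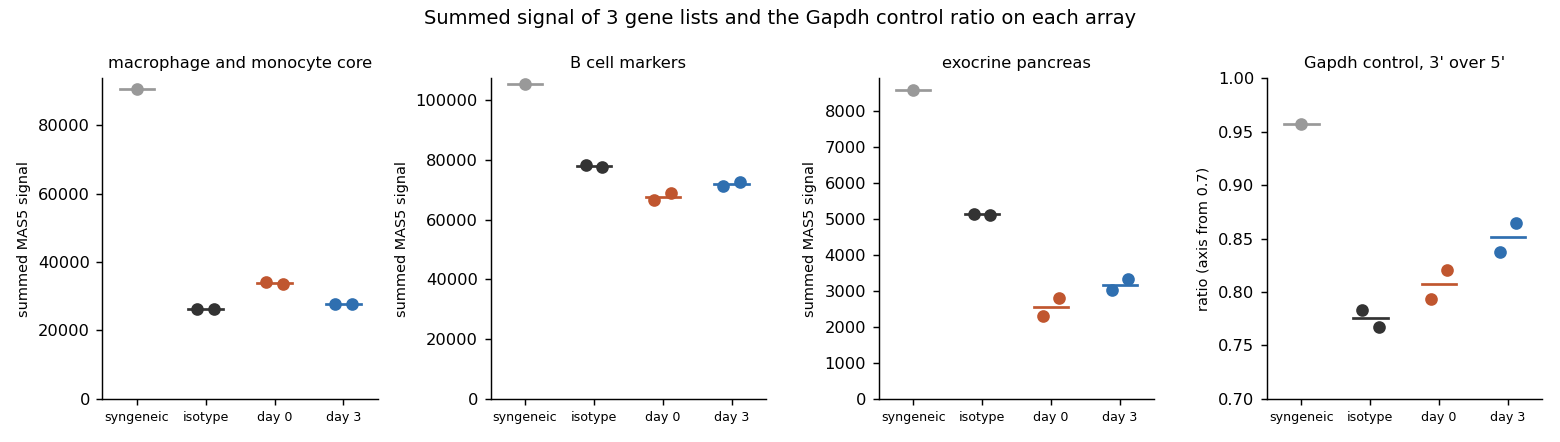
The first 3 panels give the summed MAS5 signal of the measured genes of a list on each array, from 0, and the last gives the 3' over 5' ratio of the Gapdh control on an axis that starts at 0.7. Points are arrays and bars group means. For each measure the 4 anti-ICOSL arrays lie on one side of both isotype arrays.

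Several of the largest shared changes belong to no list. On the higher side these were Vwa5a, Bicdl1, Pga5 (a pepsinogen), Syt8, Dscam, Apln (the peptide apelin) and Fgf4. The dimmer probe sets of Vwa5a, Dscam and Fgf4 overlapped, as did that of Ahi1 on the lower side. Pga5 read 20.1 and 24.2 under isotype against 175, 126, 163 and 141 (1.47 ± 0.16, limma adjusted p = 0.120). Bicdl1 read 42.8 and 25.9 against 161, 156, 229 and 195. On the lower side Lce1h, a cornified envelope protein, read 163 and 368 against 37.7, 53.1, 51.7 and 38.5, and Reg2, Abtb1, Ctrl and Ahi1 complete the 10 genes of largest change, Reg2 and Ctrl being pancreatic. All 21 genes with the largest changes or gaps kept their side under quantile normalization and median centring.

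The schedules were compared directly to see where pooling joins unlike arrays. Limma called 0 of 22626 probe sets (0%) between day 0 and day 3 (smallest adjusted p = 0.271), and 3 of 13450 (0.0223%) above the 40th percentile. Among the 1469 genes at that level on one side, the absolute difference between schedules had a median of 0.11 on the log2 scale, and 1 gene, Igha, differed at least 2-fold. Among the 6441 genes not on one side the median was 0.17, and 53 differed at least 2-fold. Large schedule differences and the shared rule exclude each other in part by construction. Both schedules are set against the same 2 isotype arrays, so the values of the schedules are not independent.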

How the data were processed

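The authors deposited 1 intensity for each probe set and array, untransformed. The submitters' processing notes name MAS5, whose version is not given in the sources used here. Their 2% trimmed means were 500.18 to 500.19 on all 7 arrays. Of 22690 probe sets 64 controls were left out. A single symbol was assigned to 20380 of the rest, several to 691 and none to 1555, from the platform annotation, and 20351 gene IDs matched RefSeq. Probe sets without a single symbol were tested and not named.

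Log2(signal + 50) was fitted with limma 3.58.1 in R 4.3.3, 4 anti-ICOSL against 2 isotype arrays, over all 22626 probe sets (two-sided, Benjamini-Hochberg, 0.05), with 4 residual and 3.02 prior degrees of freedom. Values per schedule came from a fit of 3 groups. On simulated data (10 draws, 200 changed probe sets each among 22626) this comparison called 42.1% of 2-fold and 86.6% of 4-fold changes. The changed probe sets were drawn only from those at or above the 40th percentile. The simulated noise had the spread within groups and no difference between schedules, so these shares may be too high for the real comparison. Lists (37) are described by counts, without a test. Named were the 10 largest changes and 5 largest gaps in each direction among genes on one side at or above the 40th percentile, up to 3 such members per list, and 12 fixed genes. Clec10a, Cpb1, C3ar1, Lyz1, Lyz2, Ccr2, H2-Ab1, Cd22, Stat2, Spic, Ighm, other overlapping list members and the genes at the edge of the rule were chosen after their values were seen. So were C1qc, Ccl24, Prdm1, Cxcr4, Cxcr3, Ccr6 and Alas2, which lie on one side but were not named by the rule. Members and lists were chosen with earlier results of these data known. Sample numbers did not pair the arrays (correlations of deviations −0.033, 0.088 and 0.030). Alternatives are given in the closing section.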

Additional observations from a re-analysis of the deposited data

Results flagged for a closer look

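Of 112 genes checked for an array far from the rest among the 4 anti-ICOSL arrays, 2 were found, where chance gives about 1 in 20. Both are lysosomal. Asah1, acid ceramidase, had 1 high array (946 against 799 to 814, a gap of 0.890 of the range), and Grn, progranulin, had 1 high array (4334 against 3347 to 3447, a gap of 0.886) on its brightest probe set, while its other 2 probe sets overlapped with isotype. In both cases the high array was array 2 of the day 0 group.

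Icos, the receptor of the blocked ligand, read 4044 and 4383 under isotype, 4479 and 4518 at day 0, and 3453 and 3743 at day 3, so the early schedule lay above and the late schedule below the controls. The difference between schedules was 0.32 on the log2 scale (limma adjusted p = 0.867, not past the threshold). Lyz1 had the same order, with 1631 and 1438 under isotype, 2362 and 2011 at day 0, and 789 and 602 at day 3. Its schedule difference was 1.59 (limma adjusted p = 0.603), and the same probe set passed when only probe sets at or above the 60th percentile were tested (limma adjusted p = 0.0167). A dim probe set of Lyz1 was instead higher on all 4 anti-ICOSL arrays (42.9 and 16.8 against 62.7 to 129).

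The Gapdh 3' to 5' control ratio lies outside the main measurement and was higher on every anti-ICOSL array (mean 0.8293 ± 0.030, SD, n = 4) than on either isotype array (0.775 ± 0.012, n = 2; exact permutation test, two-sided p = 0.133).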

How the results depend on the processing

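Limma called 0 probe sets as reported, 2 with a pseudocount of 100, 5 and 4 with filters at the 40th and 60th percentile, and 2 with trend and robust options. Saa3 was called under these 4 settings, Arg1 under 3, Marco under the 2 filters, Pga5 under the first and Clps under the second. Arg1 and Pga5 entered the first filtered test only through their anti-ICOSL arrays. Day 0 against day 3 gave 3, 7 and 8 calls with the 2 filters and with trend and robust options. Genes on the higher side numbered 2143 probe sets as reported, 1321 and 833 with the filters, and 1300 with median centring. Those on the lower side numbered 1658, 889 with the second filter and 2550 with median centring. At least 2-fold higher were 97, and 478, 15, 45 and 11 with pseudocounts of 16 and 100 and the filters. At least 2-fold lower were 51, and 267, 11, 16 and 6. With 1 array left out, the counts were 2726 to 5923 higher, 2179 to 5188 lower, 105 to 353 at least 2-fold higher and 59 to 282 at least 2-fold lower, larger because fewer arrays must agree. The marginal zone median was 0.48 and 0.59 with the filters (0.28 to 0.43 with 1 array left out) and the complement median 0.45 with either (0.15 to 0.43). The pancreas median was −0.79, −0.42, −0.47, −0.87, −0.65 and −0.65 with the pseudocounts, the filters, quantile normalization and centring (−0.62 to −0.44 with 1 array left out). With 1 array left out the red pulp median was 0.10 to 0.31 and that of MHC class II −0.39 to −0.10, the lower ends without isotype array 2. Median centring takes the same amount off every list median, so small positive medians turn negative by construction, among them proliferation (−0.027), lysosome (−0.0074), neutrophils (−0.0022) and regulatory T cells (−0.070). With the sample number as a replicate block 0 probe sets were called (smallest limma adjusted p = 0.249), and with 3 groups or all 7 arrays also 0 (0.277). Only 2 isotype arrays of combined RNA limit every value, and the cause of these shifts was not tested.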

Other observations

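Among chemokines and their receptors, 5 of 29 measured genes were higher and 3 lower on all 4 anti-ICOSL arrays (17.2% and 10.3%, against 10.0% and 7.43% of all genes), and the median log2 change of the list was near 0. Ccl9, a chemokine of macrophages, read 347 and 303 under isotype, 865 and 819 at day 0, and 478 and 527 at day 3, and Ccl3 read 121 and 106 against 147 to 320. Cxcr4, which holds cells in bone marrow, read 1124 and 772 against 1341 to 1706. On the lower side were Cxcr5, Cxcr3 and Ccr6, a receptor carried by B cells. Itgb2, the shared beta chain of leukocyte integrins, read 9573 and 10485 against 7116 to 7857.

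Kit, the receptor for stem cell factor on progenitors and mast cells, read 104 and 78.3 under isotype against 186 to 214 (log2 change 0.82 ± 0.15, limma adjusted p = 0.289), and its other probe set overlapped (113 and 105 against 55.5 to 167). Pf4 of platelets read 239 and 262 against 394 to 474. Collagens and stroma had 0 of 22 genes on either side, against 10.0% higher and 7.43% lower of all genes. Erythroid genes had no common side, with 1 of 21 higher and 2 lower and medians of −0.16 for day 0 and 0.32 for day 3. Sptb, a spectrin of the red cell membrane, read 119 and 134 under isotype against 141 to 285. Alas2, the first enzyme of haem synthesis in red cell precursors, read 201 and 135 under isotype, 12.7 and 7.99 at day 0, and 86.8 and 112 at day 3. It was thus 1 of the 2 lower genes, and neither of these reached the 40th percentile. Of the 21 erythroid genes 12 had a positive pooled change and 9 a negative one.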
